A study of Mus musculus with 13 samples.

Results

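The sine oculis homeobox genes encode homeodomain transcription factors, and the Eya genes encode the co-activators that bind to them. Peaks at 8 of these genes (Six2, Six3, Six4, Six5, Six6, Eya1, Eya2 and Eya4) were examined among 22367 protein-coding genes. The members were chosen by name, with earlier results of these data known, and are not every gene of the family. Their positions were those of the GENCODE vM1 annotation of the mm9 mouse genome. For each gene, the peaks that overlapped 1 kb on either side of the annotated start site (TSS), here called TSS peaks, and those that overlapped the gene body were collected from 5 lists.

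The lists came from ChIP-seq, in which DNA fragments are recovered with an antibody and regions with more fragments than background are called as peaks. All were made from mouse embryonic stem cells (mESCs) of a WT (unmutated) male line, labelled 129/1 XY and grown in serum with LIF, so the labels give 1 line throughout. Where the study describes the tagged protein for mass spectrometry it was expressed in E14 mESCs, and its ChIP methods give no line for FS2-AEBP2. AEBP2, an accessory subunit of the histone methyltransferase complex PRC2, had 2 lists (replicates 1 and 2), and so did H3K27me3, the histone mark that PRC2 places. FS2-AEBP2, which is AEBP2 with an N-terminal Flag and StrepII tag expressed from a plasmid, had 1 list, and its ChIP followed a different protocol. The labels name the antibody target only as H3K27, and the study's text names the mark as H3K27me3. Replicate numbers follow the sample records. For H3K27me3 the deposited list names appear to number the replicates the other way round, so their numbering is uncertain.

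The lists held 2877 and 6779 peaks for AEBP2 replicates 1 and 2, 2884 for FS2-AEBP2, and 14112 and 9275 for H3K27me3 replicates 1 and 2. Each peak carries a whole-number score of unstated scale. A score is therefore given with its percentile, the share of peaks in the same list with a lower score. The lists hold no read numbers. The depth is therefore unknown, and a gene without a peak may still be bound or marked below the caller's threshold. No value below has a replicate error, and no test was made, because the lists hold no read counts and each target has at most 2 of them.

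In flies and vertebrates, the Six2 to Six6 proteins and their relatives act with Eya, Pax and Dach proteins in a network known for the eye, ear, kidney and skeletal muscle. The sine oculis homeobox protein binds DNA through its homeodomain, and the Eya protein, which is also a phosphatase, binds to it and activates transcription. In mESCs, developmental regulators of this kind are commonly marked with H3K27me3, a mark of repressed genes, and PRC2 is typically found over their CpG islands, which are stretches of DNA rich in CpG dinucleotides.

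The start sites differed in CpG content. The 200 bases just upstream of 4 of them are shown because they cover the contrast described below, namely a gene with wide peaks in every list (Six2), one with narrower peaks in every list (Eya4), one with a CpG island but a single short peak (Six4) and one with no CpG island and no TSS peak (Eya2). They are read on the strand of the gene from the mm9 genome and end at the base before the TSS, with each CpG in capitals. Six2 lies at chr17:86087595-86087794 (minus strand), Eya4 at chr10:23069702-23069901 (minus strand), Six4 at chr12:74214402-74214601 (minus strand) and Eya2 at chr2:165480598-165480797 (plus strand).
Six2: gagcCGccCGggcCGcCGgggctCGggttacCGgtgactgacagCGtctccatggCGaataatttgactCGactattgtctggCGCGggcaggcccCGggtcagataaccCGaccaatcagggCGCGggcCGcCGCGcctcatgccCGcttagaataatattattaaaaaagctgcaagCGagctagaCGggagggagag
Eya4: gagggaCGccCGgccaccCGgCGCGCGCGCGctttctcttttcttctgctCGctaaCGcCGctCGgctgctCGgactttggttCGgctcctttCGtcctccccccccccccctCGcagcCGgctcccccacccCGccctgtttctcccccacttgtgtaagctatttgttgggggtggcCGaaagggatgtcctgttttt
Six4: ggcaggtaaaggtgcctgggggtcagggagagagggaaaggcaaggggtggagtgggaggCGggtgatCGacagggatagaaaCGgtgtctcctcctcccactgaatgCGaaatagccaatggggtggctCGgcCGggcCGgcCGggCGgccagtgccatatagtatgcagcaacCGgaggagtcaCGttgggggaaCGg
Eya2: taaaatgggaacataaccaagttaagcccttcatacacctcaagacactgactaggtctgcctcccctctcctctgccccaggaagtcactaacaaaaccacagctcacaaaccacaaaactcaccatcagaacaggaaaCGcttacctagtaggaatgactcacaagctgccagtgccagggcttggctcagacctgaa
The letters CG occur 21 times in the Six2 stretch, 19 times in Eya4, 12 times in Six4 and 1 time in Eya2. In the members not shown they occur 15 times at Six6, 9 times at Six3, 7 times at Six5 and 5 times at Eya1. These counts do not follow the order of the peaks, since Six3, with the widest peaks, has fewer than Six4. CG reads the same on both strands, and its occurrences cannot overlap. Among the upstream stretches of the same length of all 22367 genes the median was 7, and 12.7%, 16.8%, 36.1% and 90.4% held at least 21, 19, 12 and 1.

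A TSS peak was present in all 5 lists at 4 of the 8 genes, Six2, Six3, Six6 and Eya4. Across all protein-coding genes, 4.57% had a TSS peak in all 5 lists. Of the other members, Six5 had a TSS peak in AEBP2 replicate 2 and in both H3K27me3 lists. Six4 had a TSS peak for FS2-AEBP2 alone and Eya1 in H3K27me3 replicate 2 alone, and both of these peaks were short and low in their lists. Eya2 was the only member with no TSS peak in any list, against 68.5% of all genes.

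By list, 4 of the 8 genes had a TSS peak in AEBP2 replicate 1, where 9.08% of all genes did, and 5 in AEBP2 replicate 2, where 22.3% did. For FS2-AEBP2, 5 members and 6.53% of all genes had one. H3K27me3 replicate 1 gave 5 members against 17.0% of all genes, and replicate 2 gave 6 against 17.7%. Both AEBP2 replicates called a TSS peak at 4 members and 8.44% of all genes, and both H3K27me3 replicates at 5 members and 15.0% of all genes. The members were chosen by name with earlier results of these data known, so their shares are set beside these percentages only as a description. They leave out Eya3, which is counted below among other genes and had no TSS peak in any list.

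**Figure D1:**
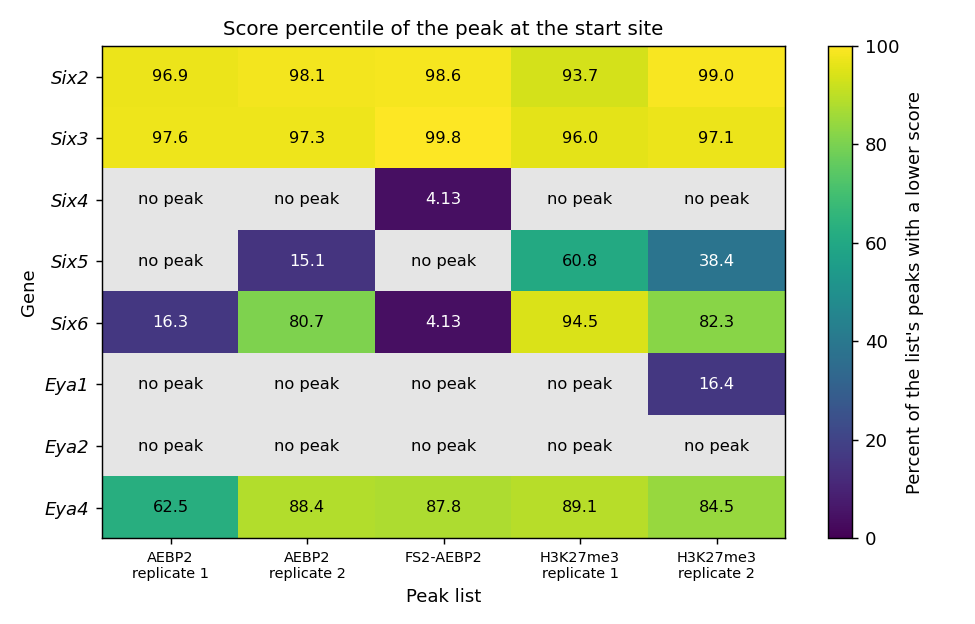
Percentile of the score of the highest-scoring TSS peak of each member (rows) in each of the 5 lists (columns), with grey cells where no TSS peak was called. Six2 and Six3 were at or above the percentile 93.7 in every list, whereas the single peaks of Six4 and Eya1 were at 4.13 and 16.4.

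Six3, which is needed for the forebrain and the eye, had the widest TSS peaks of the members in every list. The gene (ENSMUSG00000038805.7) occupies chromosome 17 from 86012948 to 86031153 (plus strand). Its TSS peak was 16670 bp long with a score of 38 (percentile 97.6) in AEBP2 replicate 1, 21595 bp with 42 (97.3) in AEBP2 replicate 2 and 21819 bp with 122 (99.8) for FS2-AEBP2. In H3K27me3 it was 33653 bp with 26 (96.0) in replicate 1 and 32326 bp with 28 (97.1) in replicate 2. The AEBP2 and FS2-AEBP2 peaks began 6001, 6065 and 6257 bp upstream of the TSS, while the H3K27me3 peaks began further away, at 12445 and 12344 bp. All annotated starts of Six3, at 0, 7235 and 7423 bp from the first, had a peak in all 5 lists. The lists also give stronger segments inside a broad peak, and the first TSS of Six3 fell within such a segment in all 5 lists.

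Six2, which keeps nephron progenitors in an undifferentiated state, followed Six3 in peak length in each list. The gene (ENSMUSG00000024134.9) lies 74646 bp from the Six3 start, on the minus strand from 86083608 to 86087594. Its TSS peak was 10962 bp long with a score of 31 (percentile 96.9) in AEBP2 replicate 1 and 14230 bp with 48 (98.1) in replicate 2. FS2-AEBP2 had a pair of peaks, of 6790 bp with a score of 80 (98.6) and of 4616 bp with 39 (91.4). The H3K27me3 peak was 28208 bp with 22 (93.7) in replicate 1 and 17941 bp with 34 (99.0) in replicate 2. The exact TSS of Six2 lay in none of the stronger segments. For FS2-AEBP2 it lay in a gap of 725 bp between both peaks, from 471 bp upstream to 253 bp downstream.

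Six6, a factor of the retina, hypothalamus and pituitary, had peaks in all lists but with unequal ranks. The gene (ENSMUSG00000021099.3) occupies chromosome 12 from 74040932 to 74045886 (plus strand). Its TSS peak scored 4 (percentile 16.3, 2109 bp) in AEBP2 replicate 1 and 16 (80.7, 2865 bp) in AEBP2 replicate 2, so the replicates placed it differently. The FS2-AEBP2 peak within 1 kb of the TSS scored 3 (4.13, 562 bp), near the bottom of its list, and a second peak of 886 bp with a score of 4 lay further into the gene. In H3K27me3 the peaks were much longer and ranked high, with 10186 bp and 23 (94.5) in replicate 1 and 8999 bp and 16 (82.3) in replicate 2. These H3K27me3 peaks covered the whole gene body.

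Eya4, which is needed for hearing, was the only Eya gene with TSS peaks in all lists. The gene (ENSMUSG00000010461.7) spans 245728 bp of the minus strand of chromosome 10, from 22823974 to 23069701. Its TSS peak had a score of 9 (percentile 62.5, 2589 bp) in AEBP2 replicate 1, 22 (88.4, 2434 bp) in replicate 2 and 31 (87.8, 1895 bp) for FS2-AEBP2. In H3K27me3 it had 17 (89.1, 5055 bp) in replicate 1 and 17 (84.5, 3968 bp) in replicate 2, where a further peak of 1456 bp scored 10 (64.2). In that replicate the TSS lay in a 721 bp gap between these peaks. Unlike the peaks of Six3 and Six2, those of Eya4 stayed near the start and covered 0.627% to 1.63% of the gene body in the 5 lists.

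Six5, a family member expressed in many tissues, had peaks of middle or low rank. The gene (ENSMUSG00000040841.4) occupies chromosome 7 from 19679893 to 19683694 (plus strand). The AEBP2 replicate 2 peak scored 4 (percentile 15.1) and ran 1979 bp, from 525 bp upstream to 1453 bp downstream of the TSS. In H3K27me3 the TSS peak scored 7 (60.8, 1230 bp) in replicate 1 and 6 (38.4, 1770 bp) in replicate 2. The near edges of these peaks lay 154 and 727 bp downstream, so the exact TSS lay in neither. Replicate 1 had a further peak of 1363 bp with a score of 7 (60.8) in the gene body. H3K27me3 peaks covered 68.2% of the gene body in replicate 1 and 46.6% in replicate 2. The pattern of both H3K27me3 lists and AEBP2 replicate 2 but not replicate 1 or FS2-AEBP2 was found at 756 genes, or 3.38%.

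Six4, a family member that acts in muscle, had a CpG island over its start but a single peak. The gene (ENSMUSG00000034460.6) is on the minus strand of chromosome 12, from 74201246 to 74214401. The peak was for FS2-AEBP2, 127 bp long with a score of 3 (percentile 4.13), from 630 to 756 bp downstream. A TSS peak for FS2-AEBP2 alone was found at 56 genes, or 0.250%. No AEBP2 or H3K27me3 list had a peak within 1 kb of the start or in the gene body.

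Eya1, needed for ear and kidney development, was called in 1 list only. The gene (ENSMUSG00000025932.7) is on the minus strand of chromosome 1, from 14159035 to 14300281. The H3K27me3 replicate 2 peak of 620 bp scored 4 (percentile 16.4), lay 726 to 1345 bp downstream of the first start and overlapped no exon. A TSS peak in H3K27me3 replicate 2 alone was found at 449 genes, or 2.01%. H3K27me3 replicate 1 had no peak closer than 192858 bp to the start.

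Eya2, which is expressed in muscle and other tissues, had peaks in 1 list and away from its first start. The gene (ENSMUSG00000017897.11) is 116430 bp long, on chromosome 2 from 165480798 to 165597227 (plus strand). H3K27me3 replicate 1 had 8 peaks in the body, with lengths of 367 to 5627 bp and scores of 1 to 13, which together covered 20696 bp, or 17.8%. Of these, 6 lay between 68861 and 112177 bp from the first start, and one reached the annotated start at 106526 bp. H3K27me3 replicate 2 had no peak in the gene and none closer than 56253 bp to the first start, and neither AEBP2 list nor FS2-AEBP2 had one in the gene. Of the 4653 genes with a body peak in H3K27me3 replicate 1, 779 (16.7%) had none in replicate 2. Only 2 of 22367 genes had 8 or more body peaks in replicate 1 and none in replicate 2, a limit set after the values of Eya2 were seen. Whether this difference comes from the cells, the depth or the calling was not tested.

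**Figure D2:**
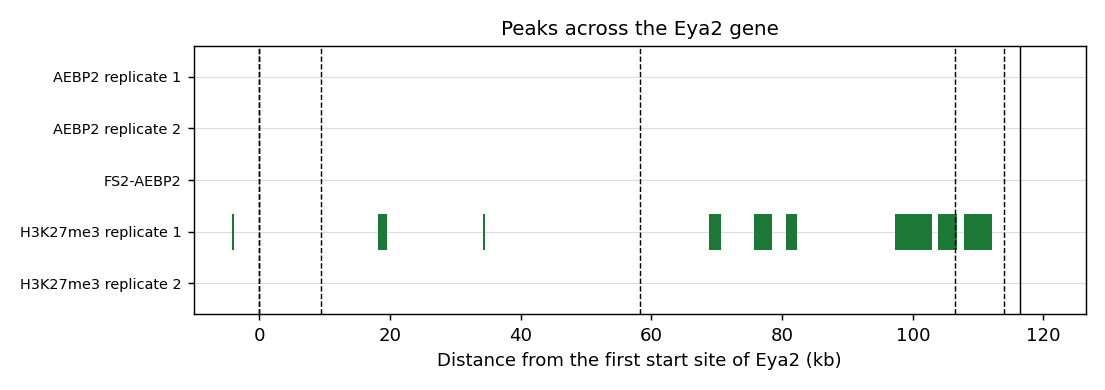
Peaks along Eya2 (bars, 1 row per list), in kb from its first start, with dashed lines at the annotated starts and a solid line at the gene end. H3K27me3 replicate 1 has 8 peaks in the body and 1 upstream of the first start. The other lists have none from 10 kb upstream of that start to the gene end. Peaks past the gene end were not collected, so that part is blank for every list.

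The distance of the nearest peak edges gives the closest calls to the 1 kb limit. The peaks of Six5 and Eya1 in H3K27me3 replicate 2, at 727 and 726 bp, were the farthest inside. Where a list had no TSS peak at a member, the nearest peak was that of Eya2 in H3K27me3 replicate 1. It ended 3926 bp upstream of the start. Members with a TSS peak had further peaks closer than this, such as the second FS2-AEBP2 peak of Six6, which began 1153 bp downstream.

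**Figure D3:**
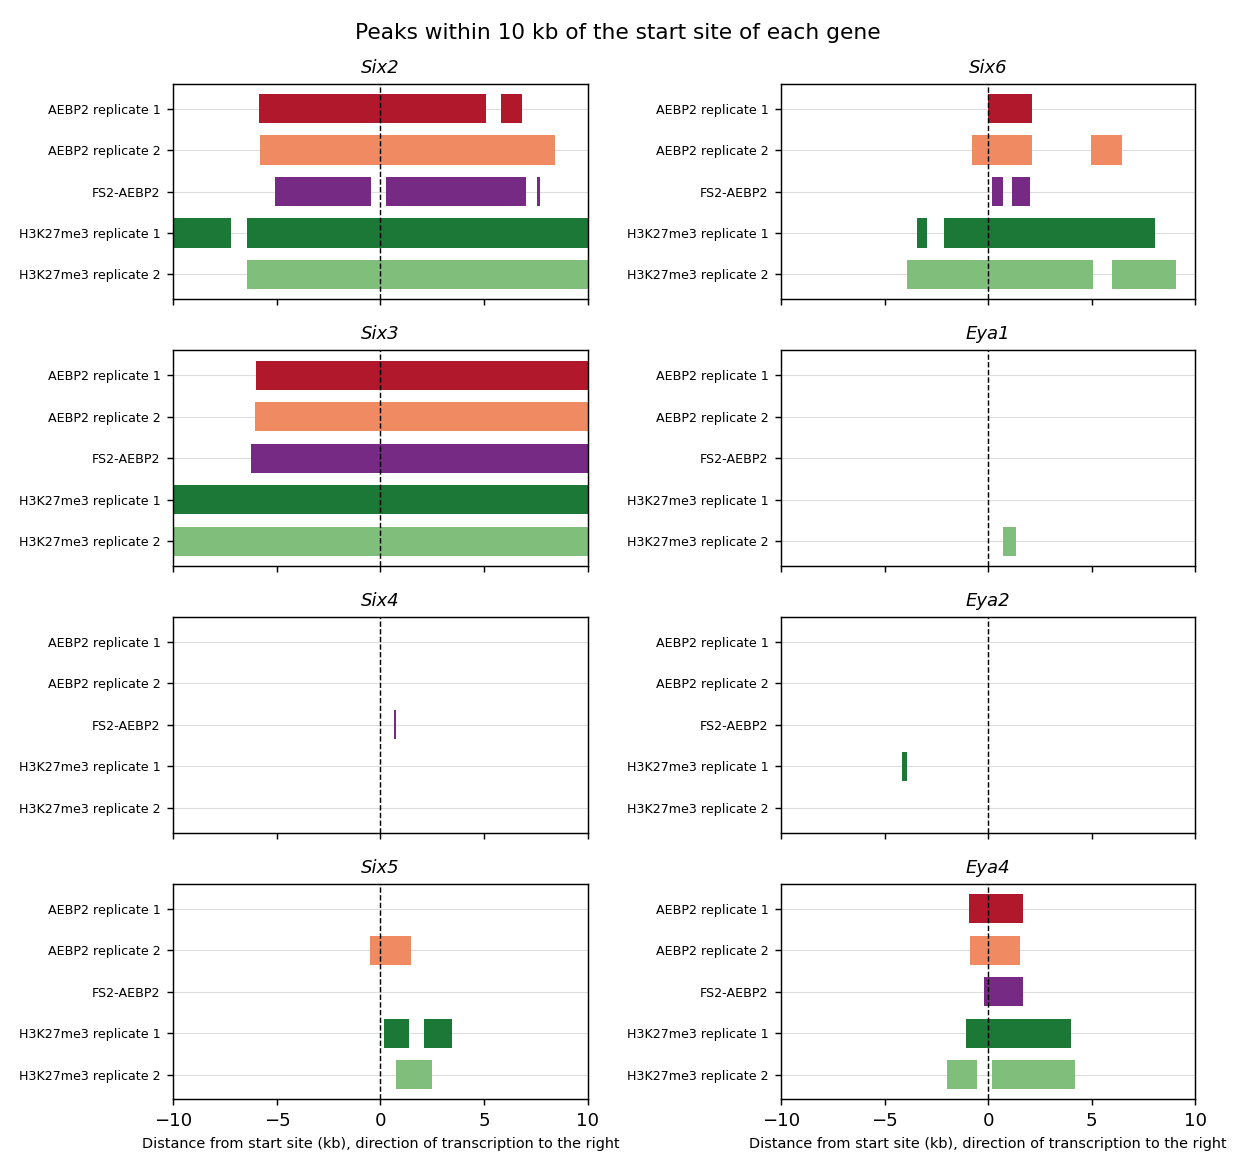
Peaks (bars, 1 row per list) within 10 kb of the start site of each member, in kb from that site (dashed line) with the direction of transcription to the right. Six3 and Six2 are covered widely in all lists, Six6 and Eya4 more narrowly, and Six5, Six4 and Eya1 by short peaks, whereas Eya2 has a single H3K27me3 replicate 1 peak upstream of the 1 kb window.

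Between 10 kb upstream and 10 kb downstream of the TSS, peaks covered 80.0%, 80.3% and 81.3% of Six3 in AEBP2 replicate 1, AEBP2 replicate 2 and FS2-AEBP2 and 100% in both H3K27me3 lists. The same measure was 60.0%, 71.1%, 57.7%, 96.0% and 82.1% for Six2 in that order of lists. It was 10.5%, 21.7%, 7.24%, 53.4% and 60.3% for Six6, and 12.9%, 12.2%, 9.47%, 25.3% and 27.1% for Eya4. At these 4 genes, coverage by H3K27me3 was above that by AEBP2 or FS2-AEBP2 in each list, and the H3K27me3 lists also had longer peaks across all genes with a TSS peak, with medians of 4839 and 3943.5 bp against 1242, 871 and 1376.5 bp.

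Peaks in the gene body, counted over the whole gene, were found at 4 members in AEBP2 replicate 1, where 10.3% of all genes had one, 5 in AEBP2 replicate 2 (24.9% of all genes) and 5 for FS2-AEBP2 (7.69%). H3K27me3 had body peaks at 6 members in each replicate, against 20.8% of all genes in replicate 1 and 20.2% in replicate 2. The sets differed, since Eya2 was counted in replicate 1 and Eya1 in replicate 2.

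Six3 and Six2 lie in one stretch of chromosome 17, which held both the long TSS peaks above and shorter peaks. From the start of Six3 to the start of Six2, 74647 bp, peaks covered 26.3% in AEBP2 replicate 1, 32.1% in replicate 2 and 30.1% for FS2-AEBP2. H3K27me3 covered 94.5% in replicate 1 and 75.3% in replicate 2. Between the genes, in 52454 bp, AEBP2 and FS2-AEBP2 covered 4.07%, 8.47% and 6.09%, and left 49604, 48013 and 48738 bp in one run without a peak. H3K27me3 covered 92.2% of this region with 4 peaks in replicate 1 and 64.8% with 10 peaks in replicate 2, and its longest run without a peak was 2048 and 5587 bp. AEBP2 peaks lay at the ends of the stretch, at both genes, and the H3K27me3 peaks also ran between them.

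**Figure D4:**
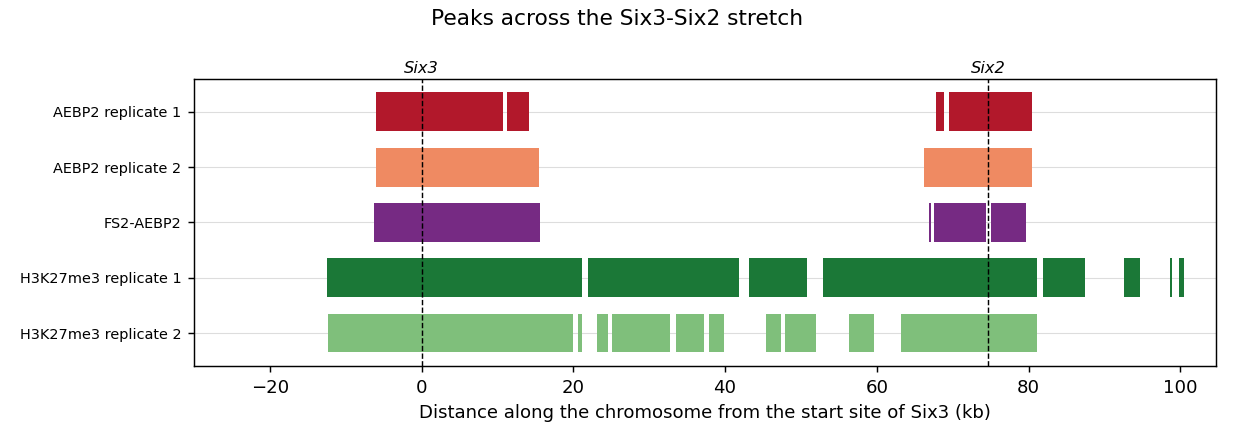
Peaks (bars) in the Six3 to Six2 stretch of chromosome 17, in kb from the start of Six3, 1 row per list, with dashed lines at the start sites. AEBP2 and FS2-AEBP2 peaks lie at Six3 and Six2, and H3K27me3 covers 94.5% and 75.3% of it.

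At the genes with AEBP2 TSS peaks, the highest-scoring AEBP2 or FS2-AEBP2 peak was compared with the H3K27me3 peaks by the share of its bases inside them. It lay fully inside for Six2, Six3 and Six6 in both H3K27me3 lists. For Eya4 it was fully inside the H3K27me3 peak of replicate 1, while 72.2%, 70.4% and 77.9% of the AEBP2 replicate 1, AEBP2 replicate 2 and FS2-AEBP2 peaks were inside those of replicate 2. For Six5, 62.2% and 36.7% of the AEBP2 replicate 2 peak lay inside the H3K27me3 peaks of replicates 1 and 2. Across all genes with a TSS peak in both lists, 87.7% and 84.8% of AEBP2 replicate 1 peaks were fully inside, against 78.1% and 69.0% for AEBP2 replicate 2 and 92.3% and 89.2% for FS2-AEBP2, each for H3K27me3 replicates 1 and 2.

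The replicates overlapped to different degrees at the members, given as shared bases over the joined length of their TSS peaks. AEBP2 replicates shared 76.2% at Six2, 77.2% at Six3, 72.0% at Six6 and 94.0% at Eya4. The H3K27me3 replicates shared 96.1% at Six3, 63.6% at Six2, 60.5% at Six6 and 70.5% at Eya4, and only 28.0% at Six5. FS2-AEBP2 shared 73.2% and 80.2% of the joined length with AEBP2 replicates 1 and 2 at Six2, 76.4% and 99.0% at Six3, 72.0% and 68.5% at Eya4, and 26.6% and 19.6% at Six6.

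Of the 8 members, 7 had a CpG-island-like region over the TSS, with lengths of 600 bp at Six3, 910 bp at Eya1, 1210 bp at Six6, 1500 bp at Eya4, 1730 bp at Six5, 2020 bp at Six4 and 2030 bp at Six2. Eya2 had none. Across all genes the count was looser, of a region defined in the same way by GC content and CpG ratio anywhere within 1 kb of the TSS. Such a region was present at 12312 of the 22367 promoters, and Eya2 was again the only member without one. Over 1 kb on either side of the TSS, GC content was 67.4% at Six2, 57.7% at Six3, 55.6% at Six4, 65.3% at Six5, 55.9% at Six6, 43.7% at Eya1, 48.6% at Eya2 and 62.0% at Eya4, against a median of 51.1% for all promoters. The observed to expected CpG ratio was 0.86 at Six2, 0.56 at Six3, 0.67 at Six4, 0.78 at Six5, 0.54 at Six6, 0.68 at Eya1, 0.25 at Eya2 and 0.70 at Eya4, against a median of 0.47. The CpG ratios of Six4, Six5 and Eya1 fell between those of Six6 and Six2, and that of Eya2 fell below. Six6 and Six2 were the lowest and highest of the 4 genes with peaks in all lists, also in GC content. By GC content only Six5 fell between them, and Six4 (55.6%), Eya1 (43.7%) and Eya2 (48.6%) were below Six6 (55.9%).

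**Figure D5:**
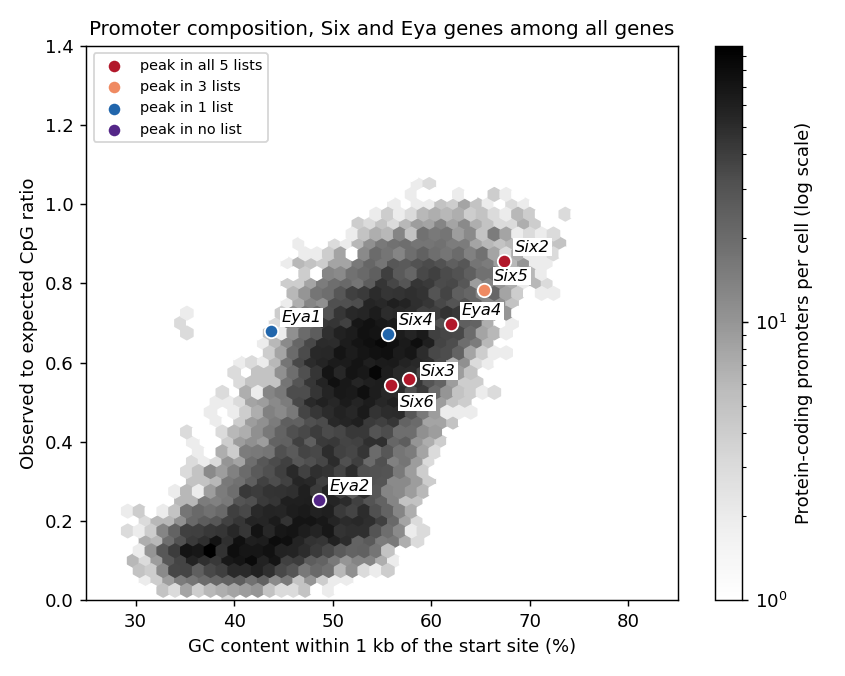
GC content (percent) and observed to expected CpG ratio of the promoters, 1 kb on either side of the TSS, for all protein-coding genes (shaded cells on a log scale of their number) with the 8 members as points coloured by the number of lists with a TSS peak. Eya2, at 48.6% GC and a ratio of 0.25, is the member lowest in CpG ratio, and Six2 the highest in both.

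Of the promoters with such a region within 1 kb of the TSS, 16.0%, 39.0% and 11.4% had a TSS peak in AEBP2 replicates 1 and 2 and FS2-AEBP2. The shares were 24.5% and 27.5% for H3K27me3 replicates 1 and 2, and 8.04% had a TSS peak in all 5 lists. For other promoters the shares were 0.597%, 1.76%, 0.567%, 7.95% and 5.82%, with 0.328% in all 5. No list had a peak at 50.7% of the promoters with an island-like region.

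Genes nearby could share the peaks. Within 100 kb of a member's start, Six2 and Six3 were each other's only neighbour and did not share a TSS peak. The neighbour of Six6, 4930447C04Rik, starts 888 bp downstream on the opposite strand and shared the TSS peak of Six6 in all 5 lists, so the peaks cannot be assigned to one of them. Mnat1, which starts 10303 bp upstream of Six4, had no TSS peak in any list. Six5 had 12 neighbours, of which 9 had no TSS peak, and Gm4969 at 23824 bp had one in 4 lists. Eya1, Eya2 and Eya4 had 0 neighbours within 100 kb.

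Among 14 other genes of this network and its targets, 8 had a TSS peak in all 5 lists, where 4.57% of all genes did. These were Dach1, Sobp, Pax2, Pax3, Pax6, Pax7, Gdnf and Myod1. Pax8, a kidney and thyroid factor, had peaks in 4 lists and missed AEBP2 replicate 1, and Sall1 had one in AEBP2 replicate 2 only. Eya3, Dach2, Myog and Myf5 had none. By list, 8, 10, 9, 9 and 9 of the 14 had a TSS peak in AEBP2 replicate 1, AEBP2 replicate 2, FS2-AEBP2, H3K27me3 replicate 1 and H3K27me3 replicate 2, against 9.08%, 22.3%, 6.53%, 17.0% and 17.7% of all genes. Pax2 and Pax7 had peaks of the length of those at Six3, with 15020 and 18934 bp in AEBP2 replicate 1 and 36085 and 34248 bp in H3K27me3 replicate 1.

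The genes with the most similar scores were those with the smallest distance over the 5 percentiles. A list without a TSS peak counted as 0, and genes sharing a peak with the member were left out. For Six2 these were Lhx2 and Lhx4, at 2.82 and 4.09 percentile points, and for Six3 Uncx and Pax2, at 3.25 and 3.43. For Six6 they were Lypd1 and Slc22a3, at 5.75 and 6.20, and for Eya4 Lef1 and Ephb1, at 8.79 and 9.45. Lypd1 and Slc22a3 both had a value of 0 for FS2-AEBP2, where Six6 was at 4.13. The distances use 5 values and are a description only.

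None of the pluripotency genes Pou5f1, Nanog, Zfp42, Esrrb and Klf4 had a TSS peak in an AEBP2 list or in both H3K27me3 lists, and 4 of the 5 had none in any list, as did 68.5% of all genes. Klf4 had one for FS2-AEBP2 and in H3K27me3 replicate 1. Peaks do not measure expression, and a share this near to that of all genes does not test the cell type named in the labels.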

How the data were processed

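A total of 5 ChIP-seq peak lists from WT mESCs were used. The other samples of the series were not analysed here. Each list is a table of broad peaks with a start, an end, blocks and a whole-number score that the authors deposited without stating its scale. The submitters' processing notes name Bowtie, SAMtools, Picard, MACS2 2.0.10.2 and mm9, without settings. Peaks were called per sample. Other sequences than chromosomes 1 to 19, X and Y were dropped, with 2 peaks of AEBP2 replicate 1 and 13 of H3K27me3 replicate 2. Peaks had to overlap a window by at least 1 bp. Coordinates and genes were those of mm9 and GENCODE vM1. An island-like region merged overlapping 500 bp windows (step 10 bp) that reached 55% GC and a CpG ratio, observed over expected, of 0.65. The genes named were the 8 members, 14 related genes (1 more is not reported here), neighbours within 100 kb, 5 pluripotency markers, and, for each member with TSS peaks in all lists, the 2 other protein-coding genes nearest over the 5 percentiles. The members and lists were chosen with earlier results of these data known. Scripts were tested on simulated data. Python 3.11.15, numpy 2.4.6 and matplotlib 3.10.9 were used.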

Additional observations from a re-analysis of the deposited data

How the results depend on the processing

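Of 54 values from other settings over 13 counts of members, 46 stayed within 1.5 times the count reported. This limit is wide for such small counts. With scores no lower than the list's median, the TSS count of AEBP2 replicate 1 fell from 4 to 3 and stayed within it. That of H3K27me3 replicate 2 fell from 6 to 4 and also stayed within it. Settings that only widened the search, such as a window of 2.5 kb, had no way to lose a member. The 46 values are therefore not a measure of stability. When only the TSS base had to be in a peak, the count of TSS peaks fell from 5 to 2 (3.24% of all genes) for FS2-AEBP2, from 6 to 3 (11.4%) in H3K27me3 replicate 2, from 5 to 3 (10.3%) in both H3K27me3 replicates and from 4 to 1 (2.37%) in all 5 lists, where Six3 remained. For FS2-AEBP2, the count fell to 3 when peaks had to cover at least 50% of the window (2.92%) and to 3 with scores no lower than the list's median (3.94%), in both cases without Six4 and Six6. The count of members with an FS2-AEBP2 body peak fell from 5 to 3 with the same score limit (4.53%) and to 3 with at least 10% of the body covered (2.78%). In all 5 lists, the count fell from 4 to 3 when peaks had to cover at least 50% of the window (2.42%). It also fell to 3 with scores no lower than the list's median (2.58%). Six6 was the gene lost in both settings, and it was then also lost from the counts of AEBP2 replicate 1 and of both AEBP2 replicates. A window of 2.5 kb changed no TSS count. With 1 replicate, AEBP2 gave 4 to 5 members and H3K27me3 5 to 6. No paired analysis was possible because no result comes from a test. Read depth, which the lists do not hold, limits every absence of a peak.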
